A study of Rattus norvegicus with 36 samples.

Results

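The genes described are 39 complement and coagulation factors, the secreted proteins that tag and lyse microbes and that clot blood. Members were the probe sets whose only gene symbol in the array's annotation is one of these factors, with the probe set of highest mean over 36 arrays kept for each gene. This gave 34 measured members of 39 listed, among 14217 genes with a probe set of their own and 31042 probe sets that are not array controls. C2 and Cfb share their probe sets in the annotation, and F7, F11 and F13b had no probe set with their symbol alone in the table used, so these 5 genes were not analysed here. The arrays hold liver RNA (left lobe) of male Harlan Sprague Dawley rats, 7 weeks old at the start, dosed in corn oil with TBPH, which is bis(2-ethylhexyl) tetrabromophthalate, an additive flame retardant that carries bromine. Gavage at 5 ml/kg ran for 5 consecutive days, and tissue was taken 1 day after the last dose. There were 6 groups of 6 arrays each, with corn oil alone (vehicle) and with TBPH at 0.07 mg/kg, 0.71 mg/kg, 7.06 mg/kg, 70.6 mg/kg and 706 mg/kg. The labels do not state that each array is a separate rat, so the p-values rest on the spread between arrays, which may be technical in part.

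Complement is a cascade of plasma proteases in which recognition proteins activate C3, the central component, and the late components assemble a pore in the target membrane. Coagulation is a second protease cascade that ends with thrombin cutting fibrinogen into fibrin, and inhibitors and the plasmin system keep it in bounds. Hepatocytes make most of these proteins, and several of them, fibrinogen and C3 included, are acute phase proteins whose synthesis rises with inflammatory signals such as interleukin-6. In whole liver, fewer cells of a type and less RNA per cell cannot be told apart.

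Values are log2 RMA values, a normalised probe set brightness on which a step of 1 is a doubling, and brightness also depends on the probes, so levels are not ranked between genes. The hepatocyte markers Alb, Apoa1, Ttr and Apob averaged 13.54 to 14.76, against array values from 1.86 to 14.77. The GAPDH control, where a high 3′ minus 5′ difference can mark partly degraded RNA, gave 0.41 log2 on replicate 5 of 70.6 mg/kg and 0.33 log2 on replicate 4 of 0.07 mg/kg, and at most 0.09 elsewhere. Results that rest on these arrays are given with and without them.

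All 34 measured members were bright on the arrays: their means over 36 arrays ran from 7.70 (Cfd) to 14.16 (Fgg), above the median of 5.09 over all values. Means were over 10 for 31 members and over 12 for 22, where 1.22% of all probe sets averaged over 12. The members at 13 or more were 10 of the 108 probe sets of that brightness, and they include all fibrinogen chains, C3, prothrombin (F2), plasminogen (Plg), vitronectin (Vtn) and antithrombin (Serpinc1). The dimmest was Cfd, adipsin, the protease of the alternative complement pathway that is known as a product of fat cells. Adipocyte markers on the same arrays averaged 3.77 (Adipoq), 4.68 (Plin1), 3.94 (Lep) and 8.86 (Cidec), the last also a gene of lipid droplets in hepatocytes.

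**Figure D1:**
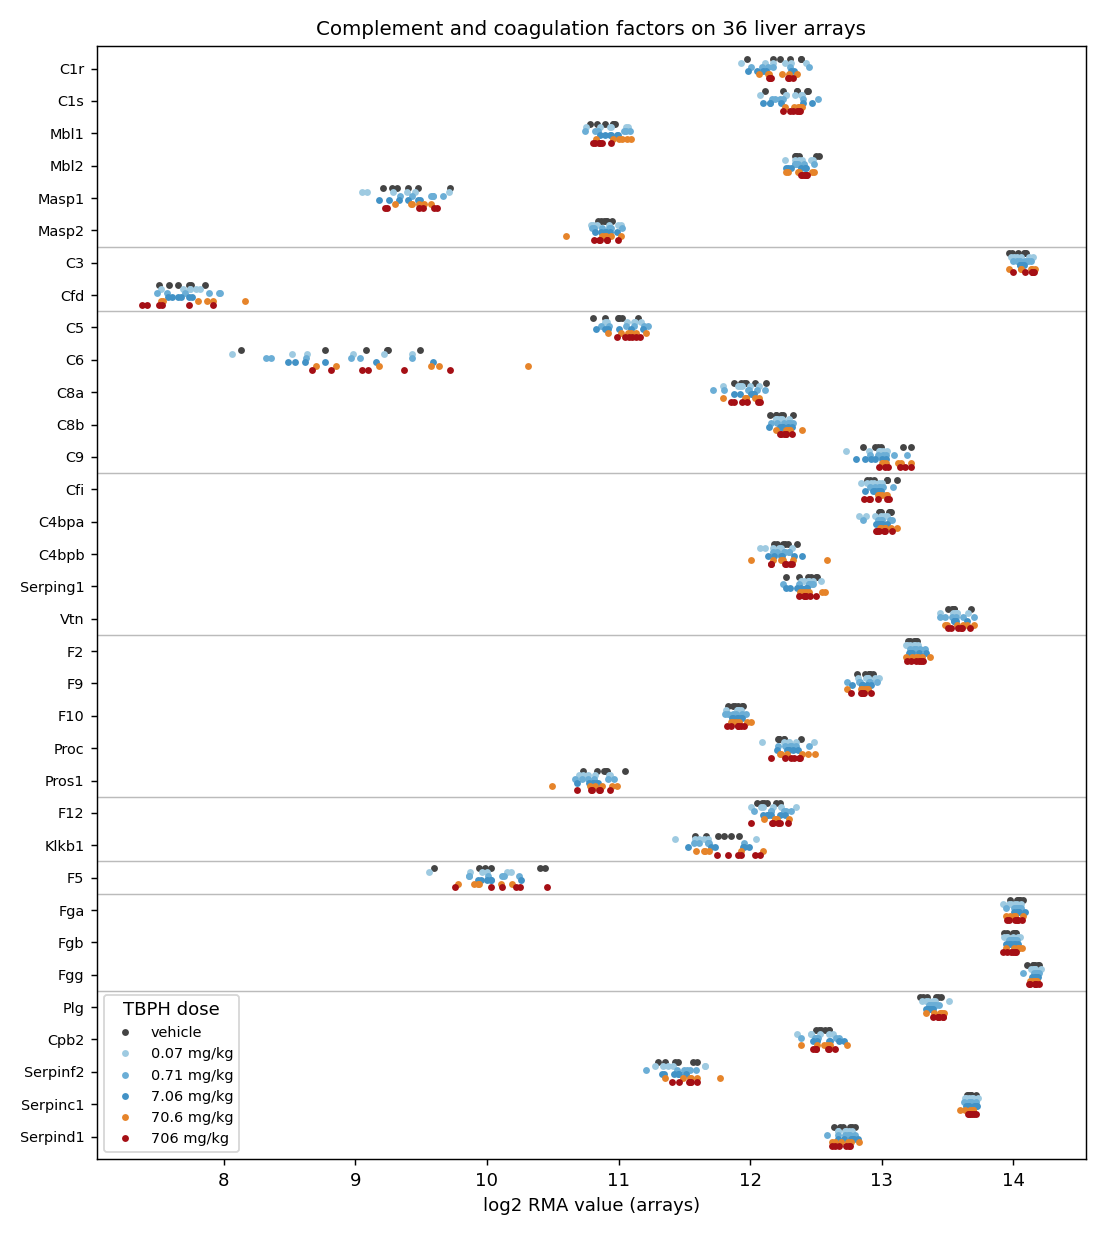
Each row is a member, grouped by role with grey lines, and each point is 1 array (x axis, log2 RMA value), coloured by dose with 6 arrays a dose. The points of most members lie in a narrow band in which the doses overlap, while C6 spreads from 8.06 to 10.31.

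Most members also varied little between arrays. The residual SD, the spread of arrays around their group mean, had a median of 0.088 log2 over the 34 members, against 0.15 over all probe sets. It lay under the median of all probe sets in 29 members, in the lowest 10% of all probe sets in 22 and in the lowest 1% in 13. Spread fell with brightness over all probe sets, from a median of 0.15 at means of 5 to 8 to 0.057 at 13 or more, and the 10 members in that top range had a median of 0.047. At means of 12 to 13 the median was 0.080 in 12 members, against 0.092 over 271 probe sets, and at 10 to 11 it was 0.10 in 4 members, against 0.12 over 723. Members were not less variable than probe sets of like brightness in the remaining ranges. The medians there were 0.12 in 5 members against 0.10 at 11 to 12, 0.32 in 2 members (C6 and Masp1) against 0.13 at 8 to 10, and 0.17 in 1 member (Cfd) against 0.15 at 5 to 8. How far signal compression near the top of the scale enters these small values was not tested. The share of variance between groups had a median of 11.5% in members and 11.2% over all probe sets. The 5 of 35 degrees of freedom correspond to 14.3%, which is a mean share without group differences and not a median.

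**Figure D2:**
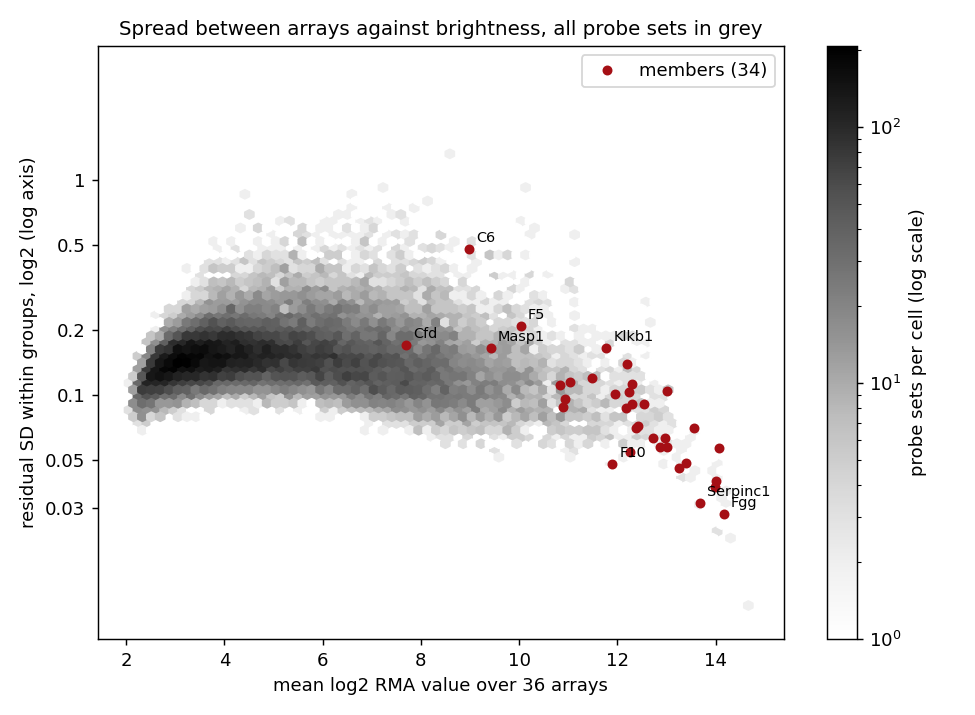
Residual SD within groups (y axis, log2 units, log axis) against mean log2 RMA value over 36 arrays (x axis), with all probe sets as grey cells and the 34 members in red. Members lie along the lower right, with Fgg at 0.028 and Serpinc1 at 0.032, while C6 stands above them at 0.48.

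Among the probe sets kept, those of fibrinogen varied least of all roles. Its chains Fga, Fgb and Fgg, which join into the soluble precursor of the clot, had residual SDs of 0.040, 0.038 and 0.028, or 2.81%, 2.65% and 1.97% on the linear scale. Fgg had the smallest residual SD of all members. The lowest, median and highest Fgg values were 14.11, 14.16 and 14.19 in vehicle, 14.13, 14.16 and 14.21 at 0.07 mg/kg, 14.08, 14.18 and 14.20 at 0.71 mg/kg, 14.14, 14.17 and 14.19 at 7.06 mg/kg, 14.13, 14.17 and 14.18 at 70.6 mg/kg, and 14.12, 14.17 and 14.20 at 706 mg/kg. All 36 Fgg values lay within 0.13 log2, and each dose overlapped vehicle. Fga ran from 13.92 to 14.09 and Fgb from 13.92 to 14.06 over all arrays. The Fga medians were 14.04 in vehicle and 14.00, 14.03, 14.04, 14.01 and 14.02 from 0.07 to 706 mg/kg, and those of Fgb were 14.00 in vehicle and 13.98, 14.00, 14.00, 14.04 and 13.99. Neither chain had a dose that separated from vehicle. Serpinc1, antithrombin, the main inhibitor of thrombin, came next to Fgg with a residual SD of 0.032 and group means between 13.66 and 13.68.

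The residual SD of C6, a component of the membrane attack complex, lay at the 99.0th percentile of all probe sets, and no other member passed the 90th. The lowest, median and highest C6 values were 8.13, 9.16 and 9.49 in vehicle, 8.06, 8.81 and 9.43 at 0.07 mg/kg, and 8.32, 8.80 and 9.43 at 0.71 mg/kg. They were 8.49, 8.69 and 9.59 at 7.06 mg/kg, 8.70, 9.38 and 10.31 at 70.6 mg/kg, and 8.67, 9.07 and 9.72 at 706 mg/kg. The medians moved up and down over the doses with no steady order. Over all arrays the values spanned 2.25 log2, or 4.77-fold, and within single groups they spanned 1.05 (706 mg/kg) to 1.61 log2 (70.6 mg/kg), with 1.36 in vehicle. The highest of the 36 C6 values was on replicate 5 at 70.6 mg/kg and the lowest on replicate 4 at 0.07 mg/kg, the arrays with the high GAPDH differences. Without these 2 arrays the C6 values spanned 1.59 log2, or 3.01-fold, and the residual SD was 0.43, against 0.48 with them. The other late components varied less, with residual SDs of 0.12 for C5, 0.10 for C8a, 0.054 for C8b and 0.10 for C9.

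**Figure D3:**
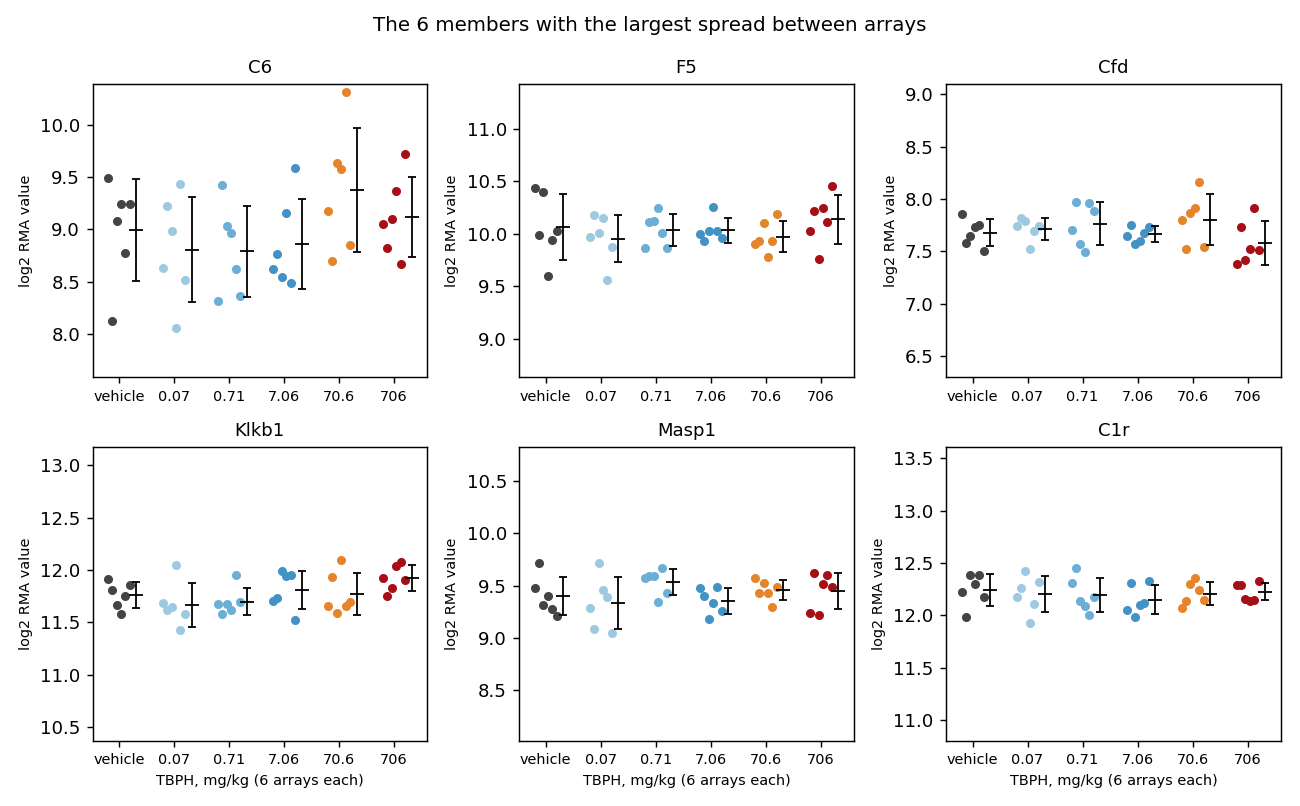
Log2 RMA values (y axis, each panel spanning the same range of 2.8 log2) by dose (x axis, mg/kg) for the 6 members with the largest residual SD. Points are arrays, and black marks give the mean ± SD of 6 arrays. Doses overlap in every panel, and C6 fills more of its panel than the others.

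After C6 the largest residual SDs were those of F5 (0.21), Cfd (0.17), Klkb1 (0.17), Masp1 (0.17) and C1r (0.14). F5, the cofactor that speeds the activation of prothrombin, ran from 9.76 to 10.45 at 706 mg/kg with a median of 10.16, against 9.59 to 10.44 in vehicle with a median of 10.01. Klkb1, plasma prekallikrein of the contact system, ran from 11.75 to 12.08 at 706 mg/kg with a median of 11.92, against 11.58 to 11.91 in vehicle with a median of 11.78. Masp1, a protease bound to mannose-binding lectins, ran from 9.22 to 9.62 at 706 mg/kg, against 9.21 to 9.72 in vehicle. Cfd ran from 7.38 to 7.92 at 706 mg/kg, against 7.51 to 7.86 in vehicle. C1r, a protease of the C1 complex, ran from 12.14 to 12.33 at 706 mg/kg, against 11.98 to 12.39 in vehicle. The 706 mg/kg and vehicle values overlapped for each of these genes. At the doses between, the F5 medians were 9.98, 10.06, 10.01 and 9.93 from 0.07 to 70.6 mg/kg, those of Cfd 7.74, 7.79, 7.66 and 7.84, those of Klkb1 11.63, 11.68, 11.84 and 11.67, those of Masp1 9.34, 9.58, 9.36 and 9.46, and those of C1r 12.22, 12.16, 12.11 and 12.19. None of these series of medians ran in 1 direction. The vitamin K dependent proteins had residual SDs from 0.046 (F2) to 0.11 (Pros1, protein S, the cofactor of protein C), and F10, factor X, and F9, factor IX, had 0.048 and 0.058. The complement regulators lay between 0.058 (C4bpa, a chain of C4b-binding protein) and 0.10 (C4bpb, its other chain), with Serping1, the C1 inhibitor, at 0.072 and Cfi, which cleaves C3b, at 0.063. Without the 2 arrays of high GAPDH difference the residual SDs were 0.091 for Pros1, 0.080 for C4bpb and 0.16 for Cfd.

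No complement or coagulation factor passed the adjusted threshold at 706 mg/kg. Of the 34 members 18 were higher and 16 lower (48.4% and 51.6% of all probe sets), with a median log2 difference of 0.0045, against -0.0034 over all probe sets. By limma 0 members had an adjusted p under 0.05 (0% of all probe sets), and 0 had an unadjusted p under 0.05, against 3.48% of all probe sets. The fit drew each probe set's SD towards a common 0.14 log2, while the members' median residual SD was 0.088. In each comparison this widened the intervals and raised the p of members well below 0.14, which lowers such counts. The smallest p belonged to Klkb1, which averaged 11.92 ± 0.12 at 706 mg/kg and 11.76 ± 0.12 in vehicle (SD, n = 6 each), a difference of 0.16 log2 (95% interval -0.03 to 0.35, limma, adjusted p = 1.00). These values overlapped between the groups. C3 ran from 14.00 to 14.16 with a median of 14.14 at 706 mg/kg, against 13.97 to 14.10 with a median of 14.06 in vehicle, a difference of means of 0.07 (-0.02 to 0.16). C5, which is cut to start the membrane attack complex, ran from 10.99 to 11.16 with a mean of 11.09 at 706 mg/kg, against 10.80 to 11.15 with a mean of 10.98 in vehicle, a difference of 0.11 (-0.03 to 0.25). The fibrinogen differences lay between -0.02 and -6.4e-05, and F2, with medians of 13.27 at 706 mg/kg and 13.25 in vehicle, differed by 0.02 (-0.06 to 0.10). The 95% interval lay within a 1.25-fold change either way for 32 of 34 members, against 81.6% of all probe sets, and the widest was that of C6, 0.13 (-0.39 to 0.64).

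The lower doses gave the same count of 0 members past the adjusted threshold (limma, 0% of all probe sets at each dose). Unadjusted p under 0.05 was also found in 0 members at 70.6, 7.06, 0.71 and 0.07 mg/kg, against 5.24%, 3.48%, 3.98% and 3.07% of all probe sets. At each of the 5 doses the 6 dosed and 6 vehicle arrays overlapped for all 34 members, where groups without overlap made up 0.142% to 0.216% of all probe sets. At 70.6 mg/kg 24 members were higher and 10 lower (48.9% and 51.1% of all probe sets), with a median of 0.03 against -0.0021 over all probe sets. Of the neutrophil and monocyte markers measured, 2 of 3 were higher at this dose, with log2 differences of 0.30 for S100a8, 0.35 for S100a9 and -0.01 for Ccr2. Of these 3, 2 had an unadjusted p under 0.05 and 0 passed the adjusted threshold (limma). The log2 summed level of these 3 markers ran from 6.01 to 7.39 at 70.6 mg/kg and from 5.96 to 6.30 in vehicle. Its median was 6.34 at 70.6 mg/kg and 6.14 in vehicle. S100a8 and Ccr2 averaged 4.18 and 3.00 over 36 arrays, below the median of 5.09 over all values. The Kupffer cell and macrophage markers were higher for 5 of 5 with a median of 0.06, and their summed level ran from 10.96 to 11.86 at 70.6 mg/kg and from 11.04 to 11.63 in vehicle. The median of that level was 11.37 at 70.6 mg/kg and 11.37 in vehicle. All 5 were also higher at 0.71 mg/kg (median 0.11) and at 0.07 mg/kg (median 0.08). At 706 mg/kg 3 of them were higher, and at 7.06 mg/kg 1 was. Of the 7 stellate cell and fibroblast markers, 3 were higher at 70.6 mg/kg (median -0.02). All 7 were higher at 706 mg/kg (median 0.15) and at 0.71 mg/kg (median 0.28), 6 at 7.06 mg/kg and 3 at 0.07 mg/kg. The part of these cells in the members' values was not tested. The members' medians were 0.0016 at 7.06 mg/kg, -0.0028 at 0.71 mg/kg and -0.0051 at 0.07 mg/kg, and the SD of the members' median between arrays of a group was 0.03. This SD is for single arrays and is wider than the error of a difference between means of 6 arrays. Members lower than vehicle numbered 17 at 7.06 mg/kg, 19 at 0.71 mg/kg and 20 at 0.07 mg/kg, against 51.9%, 52.1% and 51.9% of all probe sets. The interval lay within a 1.25-fold change for 32 members at 70.6 mg/kg, 33 at 7.06 mg/kg, 32 at 0.71 mg/kg and 32 at 0.07 mg/kg, against 79.9%, 82.1%, 81.4% and 82.6% of all probe sets. All doses were compared with the same 6 vehicle arrays.

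At 70.6 mg/kg the smallest p belonged to Mbl1, a mannose-binding lectin, which ran from 10.83 to 11.09 with a median of 11.02 there, against 10.78 to 10.97 with a median of 10.93 in vehicle, a difference of means of 0.10 (-0.02 to 0.22, limma, adjusted p = 0.921). Its medians at 0.07 mg/kg, 0.71 mg/kg, 7.06 mg/kg and 706 mg/kg were 10.94, 10.94, 10.94 and 10.86. C6 averaged 9.37 ± 0.59 at 70.6 mg/kg and 8.99 ± 0.49 in vehicle, a difference of 0.38 (-0.14 to 0.90), and this was 0.19 without replicate 5 at this dose and 0.21 without replicate 2 of vehicle. C8b, the beta chain of the late component C8, differed by 0.06 (-0.02 to 0.15). At 7.06 mg/kg C9, the component that forms the wall of the pore, averaged 12.93 ± 0.09 against 13.03 ± 0.14 in vehicle, a difference of -0.10 (-0.23 to 0.03). Pros1 differed by -0.09 (-0.23 to 0.04) and Serping1 by -0.06 (-0.16 to 0.04) at the same dose. At 0.71 mg/kg Masp1 averaged 9.53 ± 0.12 against 9.40 ± 0.18 in vehicle, a difference of 0.13 (-0.06 to 0.32). Among these values every dosed group overlapped vehicle. C5 differed by 0.08 (-0.05 to 0.22) and Pros1 by -0.08 (-0.21 to 0.06) at this dose. At 0.07 mg/kg C4bpa averaged 12.95 ± 0.08 against 13.03 ± 0.04 in vehicle, a difference of -0.08 (-0.16 to 0.01). C9 differed by -0.08 (-0.21 to 0.05) and Cfi by -0.06 (-0.15 to 0.03) there. None of these differences passed the test, and 1 array moved several of them by over 1.5 times. Without replicate 3 of vehicle, C9 differed by -0.06 at 7.06 mg/kg and by -0.05 at 0.07 mg/kg, and Cfi by -0.03 at 0.07 mg/kg. Without replicate 5 of vehicle, Pros1 differed by -0.06 at 7.06 mg/kg and by -0.04 at 0.71 mg/kg. Without replicate 6 of vehicle, C5 differed by 0.05 at 0.71 mg/kg and by 0.07 at 706 mg/kg. Arrays of the dosed groups did the same for 4 differences: C5 at 0.71 mg/kg was 0.05 without replicate 6, Pros1 at 0.71 mg/kg was -0.05 without replicate 4, C4bpa at 0.07 mg/kg was -0.05 without replicate 4, and C9 at 0.07 mg/kg was -0.04 without replicate 6.

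F2 and members with the smallest p at a dose are given here over the ordered doses. Masp1 averaged 9.40 in vehicle and 9.33, 9.53, 9.35, 9.46 and 9.45 from 0.07 to 706 mg/kg, within 9.05 to 9.72 over all arrays. C5 averaged 10.98 in vehicle and 11.05, 11.07, 10.99, 11.08 and 11.09 from 0.07 to 706 mg/kg, within 10.80 to 11.22 over all arrays. C8b averaged 12.23 in vehicle and 12.23, 12.26, 12.24, 12.29 and 12.26 from 0.07 to 706 mg/kg, within 12.14 to 12.40 over all arrays. None of these means ran in 1 direction over the doses. Serping1 averaged 12.43 in vehicle and 12.45, 12.41, 12.36, 12.46 and 12.43 from 0.07 to 706 mg/kg, within 12.25 to 12.57 over all arrays. C4bpa averaged 13.03 in vehicle, with its lowest dose mean of 12.95 at 0.07 mg/kg and its highest of 13.04 at 70.6 mg/kg, within 12.83 to 13.11 over all arrays. Without the 2 arrays of high GAPDH difference C4bpa ran from 12.86 to 13.08. Cfi had medians of 12.99 in vehicle and 12.93, 12.98, 12.96, 12.99 and 12.94 from 0.07 to 706 mg/kg, within 12.84 to 13.12 over all arrays. The regulators likewise went up and down over the doses. F2 averaged 13.24 in vehicle and 13.23, 13.27, 13.25, 13.27 and 13.26 from 0.07 to 706 mg/kg, within 13.18 to 13.37 over all arrays. Pros1 averaged 10.89 in vehicle and 10.81, 10.81, 10.79, 10.82 and 10.82 from 0.07 to 706 mg/kg, within 10.50 to 11.05 over all arrays. Without the 2 arrays of high GAPDH difference Pros1 ran from 10.67 to 11.05. Prothrombin and protein S also showed no steady order.

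**Figure D4:**
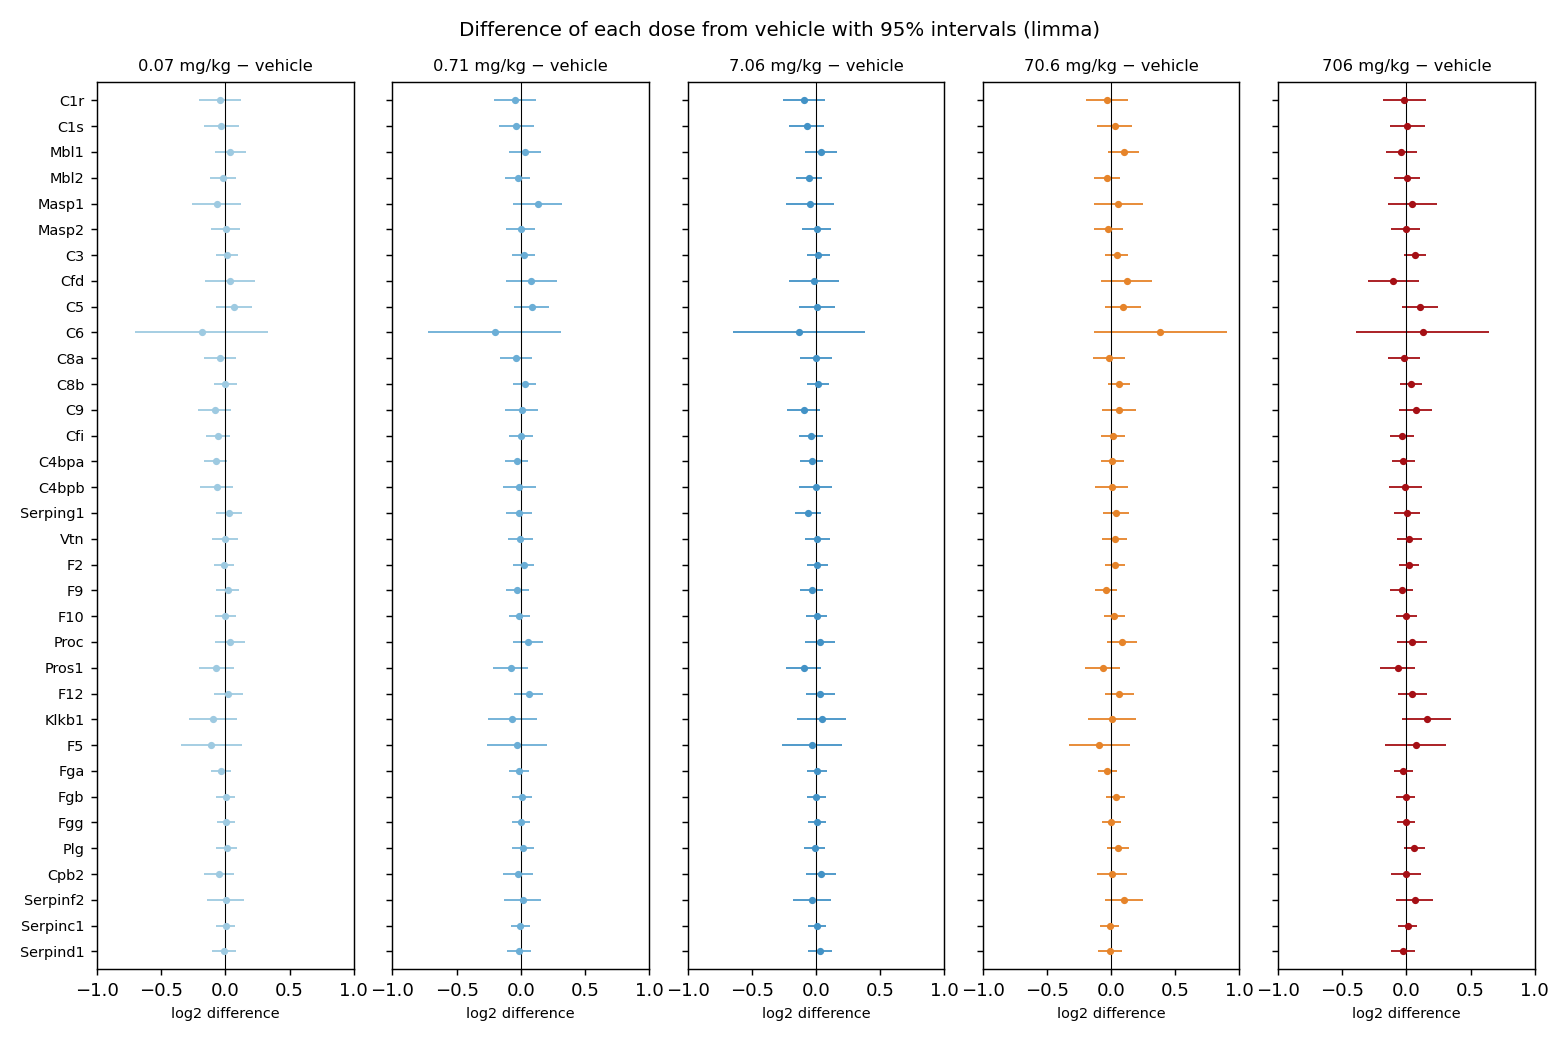
Log2 difference of each dose from vehicle (x axis) with 95% intervals from limma for the 34 members (rows), 1 panel a dose. Every interval holds 0, and the intervals of C6 are the widest in each panel.

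Over the ordered doses 1 of 34 members had an unadjusted p under 0.05, against 4.16% of all probe sets, and 0 passed after adjustment (0% of all probe sets). That member was Klkb1, with a slope of 0.03 log2 for each dose step (0.0025 to 0.07, limma, adjusted p = 0.998). Its group means were 11.76 in vehicle, 11.67 at 0.07 mg/kg, 11.70 at 0.71 mg/kg, 11.81 at 7.06 mg/kg, 11.77 at 70.6 mg/kg and 11.92 at 706 mg/kg, so the 2 lowest doses lay below vehicle. These means include the arrays of high GAPDH difference. Their Klkb1 deviations from the group mean were 0.38 log2 (replicate 4 at 0.07 mg/kg) and -0.11 log2 (replicate 5 at 70.6 mg/kg). C3 had a slope of 0.01 (-0.0019 to 0.03, limma, adjusted p = 0.998). Its group means were 14.05, 14.06, 14.070, 14.065, 14.09 and 14.11 from vehicle to 706 mg/kg, so 7.06 mg/kg lay below 0.71 mg/kg. Plg, the precursor of plasmin, had a slope of 0.01 (-0.0018 to 0.03, limma, adjusted p = 0.998), with medians of 13.38 in vehicle and 13.37, 13.39, 13.37, 13.45 and 13.43 from 0.07 to 706 mg/kg. For any difference among the 6 groups 0 members passed (0% of all probe sets), and 0 had an unadjusted p under 0.05, against 2.54% of all probe sets. The smallest p for any difference was that of C9 (limma, adjusted p = 1.00), whose group means were 13.03 in vehicle and 12.94, 13.04, 12.93, 13.09 and 13.10 from 0.07 to 706 mg/kg.

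Deviations of arrays from their group means were compared for 12 pairs of genes, with Benjamini-Hochberg adjustment over the 12, and 3 pairs passed. C1r and C1s, the proteases that act together in the C1 complex and whose genes lie next to each other, varied together with Pearson r = 0.76 over 36 arrays (permutation p = 2e-05, adjusted p = 0.00012) and Spearman rho = 0.67 (permutation p = 0.00013, adjusted p = 0.00068). Without the 2 arrays farthest from the median of C1r, r was 0.68. Fga and Fgg gave r = 0.72 (permutation p = 2e-05, adjusted p = 0.00012) and rho = 0.69 (permutation p = 2e-05, adjusted p = 0.00024), with r = 0.73 without the 2 farthest arrays of Fga. Fgb and Fgg gave r = 0.49 (permutation p = 0.0017, adjusted p = 0.0068) and rho = 0.60 (permutation p = 0.00017, adjusted p = 0.00068), with r = 0.40 without the 2 farthest arrays of Fgb. Fga and Fgb gave r = 0.25 (permutation p = 0.201, adjusted p = 0.38) and did not pass. Without the arrays of high GAPDH difference the r values of these 4 pairs were 0.72, 0.87, 0.48 and 0.39. The deviations of the fibrinogen chains are small, with residual SDs of at most 0.040, and any part of array-wide normalisation error in them was not tested.

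The remaining pairs did not pass. C8a and C8b, neighbouring genes of the same complex, had r = 0.23 (permutation p = 0.221), C4bpa and C4bpb 0.14 (p = 0.415), Mbl1 and Mbl2 -0.07 (p = 0.703), and Masp1 and Masp2 0.0027 (p = 0.989), all by permutation. F9 and Proc, protein C, had r = -0.39 (permutation p = 0.0291, adjusted p = 0.0698). Without the 2 arrays of high GAPDH difference their r was -0.25 (permutation p = 0.174, adjusted p = 0.299). Fgb had r = 0.42 with A2m, the alpha-2-macroglobulin that is an acute phase protein of rats (permutation p = 0.0236, adjusted p = 0.0698). Fgb and C9 had r = -0.08 (permutation p = 0.762) and 0.10 (permutation p = 0.608) with Hp, haptoglobin.

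**Figure D5:**
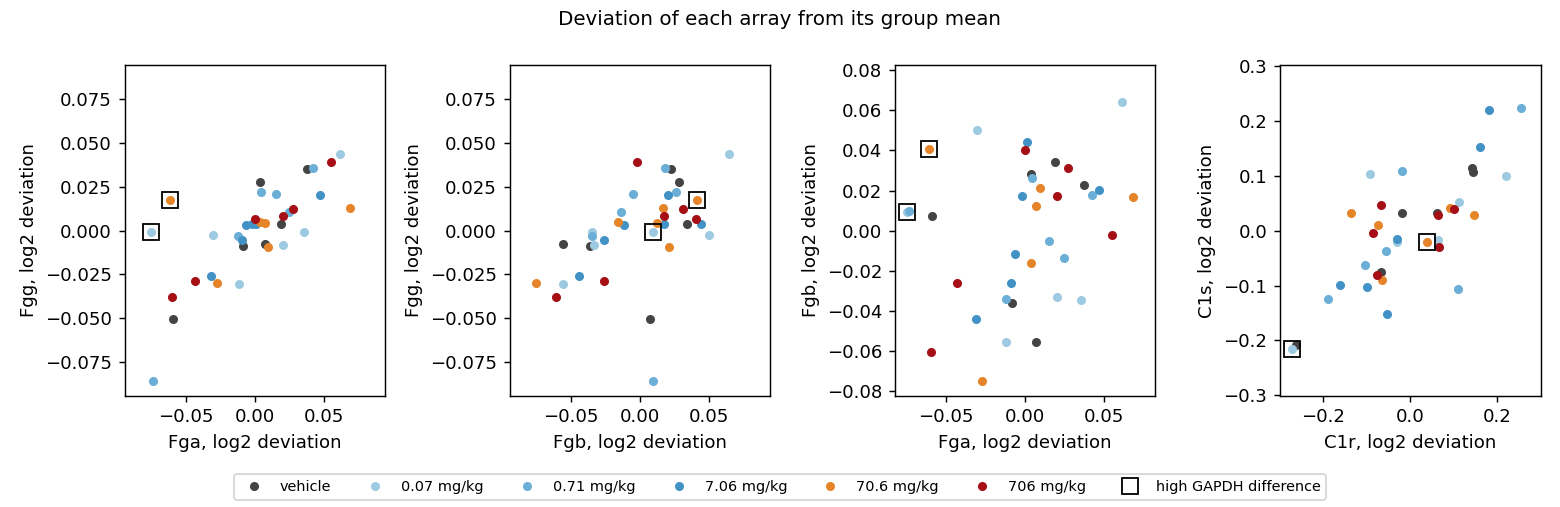
Deviation of each of the 36 arrays from its group mean (both axes, log2), coloured by dose, for 4 gene pairs. Open squares mark the 2 arrays with a high GAPDH 3′ minus 5′ difference. Points follow a line for Fga with Fgg and for C1r with C1s, and scatter for Fga with Fgb.

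The fibrinogen promoters are shown because these neighbouring genes are among the 4 members of smallest residual SD and because Fgg varied with both other chains. RefSeq's promoter table (build GRCr8) held 28 of the 34 measured members. The 250 bases before the annotated start lie at chr2:170652833-170653082 on the plus strand for Fgg, chr2:170671919-170672168 on the plus strand for Fga and chr2:170700876-170701125 on the minus strand for Fgb. Capitals mark the letters CTGGGA on either strand (TCCCAG on the other), the core of the interleukin-6 response elements known from fibrinogen genes.
Fgg: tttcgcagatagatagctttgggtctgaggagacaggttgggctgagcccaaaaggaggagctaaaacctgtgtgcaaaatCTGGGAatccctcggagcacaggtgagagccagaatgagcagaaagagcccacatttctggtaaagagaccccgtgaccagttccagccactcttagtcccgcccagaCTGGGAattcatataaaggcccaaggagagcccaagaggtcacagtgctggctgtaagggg
Fga: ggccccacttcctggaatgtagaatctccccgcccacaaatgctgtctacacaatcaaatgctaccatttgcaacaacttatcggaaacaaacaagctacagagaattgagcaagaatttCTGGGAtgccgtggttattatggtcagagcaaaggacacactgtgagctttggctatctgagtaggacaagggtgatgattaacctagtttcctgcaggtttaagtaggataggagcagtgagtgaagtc
Fgb: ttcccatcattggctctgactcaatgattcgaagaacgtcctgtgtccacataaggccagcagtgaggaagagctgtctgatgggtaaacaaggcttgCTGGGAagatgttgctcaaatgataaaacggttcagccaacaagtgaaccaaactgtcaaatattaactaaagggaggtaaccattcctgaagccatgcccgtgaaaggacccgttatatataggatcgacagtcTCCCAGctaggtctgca
The letters start 169 and 61 bases before the start in Fgg, 130 in Fga, and 152 and 17 in Fgb, the last on the opposite strand. They were present in 14 of 28 member promoters and in 25.8% of 27457 promoters. The letters GTTAAT on either strand, which can overlap that motif by an end base and form part of the site of the liver factor HNF1, were present in 9 of 28 member promoters (32.1%), against 6.46% of all promoters. A match of letters is a description and does not show that a factor binds.

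Of 48 other genes of the same pathways 34 were measured, and 0 of them passed the adjusted threshold at any dose (limma). At 706 mg/kg 20 of the 34 lay above vehicle and 14 below, the median being 0.0049, and 5 had an unadjusted p under 0.05, against 3.48% of all probe sets. Those above and below vehicle numbered 25 and 9 at 70.6 mg/kg, 16 and 18 at 7.06 mg/kg, 24 and 10 at 0.71 mg/kg, and 19 and 15 at 0.07 mg/kg. Unadjusted p under 0.05 was found in 2, 1, 1 and 0 of them at these doses, shares of the 34 that compare with 5.24%, 3.48%, 3.98% and 3.07% of all probe sets. Of all probe sets, 48.4% lay above vehicle at 706 mg/kg, 48.9% at 70.6 mg/kg, 48.1% at 7.06 mg/kg, 47.9% at 0.71 mg/kg and 48.1% at 0.07 mg/kg. Thbd, thrombomodulin, the endothelial receptor that turns thrombin towards protein C, averaged 6.22 at 706 mg/kg and 6.01 in vehicle, a difference of 0.21 (0.04 to 0.39; limma, adjusted p = 1.00). Vkorc1, the reductase that recycles vitamin K for the clotting factors, averaged 11.88 at 706 mg/kg and 12.05 in vehicle, a difference of -0.17 (-0.32 to -0.02; limma, adjusted p = 1.00). The others of the 5 were F3, tissue factor, which starts coagulation, at -0.30, Fcnb, a ficolin that recognises microbes, at -0.29, and Plaur, the urokinase receptor, at -0.15, named after their values were seen. F3, Fcnb and Plaur averaged 4.11, 4.56 and 3.86 over 36 arrays, below the median of 5.09 over all values. Thbd differed by 0.16, 0.19, 0.22 and 0.18 at 0.07 mg/kg, 0.71 mg/kg, 7.06 mg/kg and 70.6 mg/kg, all against the same vehicle arrays. Factors that use vitamin K differed at 706 mg/kg by -0.07 (Pros1) to 0.04 (Proc), with a median of -0.0023 over 5 measured members.

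For 5 members the array carries more than 1 probe set, and these did not always move together. The second Fga probe set, at a mean of 12.11, had a residual SD of 0.13, against 0.040 for the kept one. The second Mbl2 probe set had 0.18, against 0.070 for the kept one. The residuals of the kept probe set correlated with those of the others at 0.53 for Fga, at 0.45 for Mbl2 and at 0.45 and 0.52 for Masp2, as a description over 36 arrays. For Fgb the values were -0.19 and -0.06 with probe sets averaging 4.41 and 2.95, below the median of all values, while the kept one averaged 14.00. For Masp1 they were -0.04 and 0.06 with probe sets averaging 6.50 and 6.12. Of these other probe sets 1 had an unadjusted p under 0.05 at some dose, the dimmest of Fgb (0.24 at 70.6 mg/kg), and 0 passed after adjustment. The 4 probe sets that C2 and Cfb share averaged 12.68, 10.06, 9.47 and 9.19 and cannot be assigned to either gene.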

How the data were processed

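The deposited table holds log2 values, 1 per probe set and array, made by the authors with RMA and the affy package, per the submitters' processing notes, and no versions or genome build are named there. RMA corrects background, quantile-normalises arrays and summarises probes, so differences common to most probe sets are removed. Of the rows 57 array controls were left out. The annotation gave 1 symbol for 20826 probe sets, several for 436 and none for 9780. All 34 measured members kept their gene ID in RefSeq's current table. No pair of arrays held identical values.

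Each dose was compared with vehicle by limma 3.58.1 in R 4.3.3 on 36 arrays (30 residual degrees of freedom), two-sided, with Benjamini-Hochberg adjustment at 0.05 over 31042 probe sets. R/maanova, named in the design text, could not be used here. A slope over dose rank and an F test used the same values. Pairs of genes were tested by permutation within groups (100000 resamples). The fit was also run on simulated data with added changes of known size. Its recovery of changes as small as those of the members is not reported here. Arrays give no depth. Precision is set by their number, with a standard error of a dose difference of 0.08 log2 at the median probe set. Members described in every group were those with the 3 smallest p in each comparison, the 6 largest and 4 smallest residual SDs, the fibrinogen chains, C3 and F2. The members, lists and tests were chosen with earlier results of these data known. Alternatives covered the arrays in the fit, moderation, array weights, dim probe sets, normalization, probe set choice, threshold, dose scale and single arrays. Of 15 planned pairs 3 hold a gene that was not measured. Plots used matplotlib 3.10.9 (Python 3.11.15).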

Additional observations from a re-analysis of the deposited data

Results flagged for a closer look

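Among 204 groups of 6 values (34 members in 6 groups), 9 held an array set far apart from the other 5, judged by its gap to the nearest array over the range of the group (Dixon's criterion at 95%). Chance flags about 1 in 20 groups, which is 10.2 here. Replicate 5 at 70.6 mg/kg, with a high GAPDH 3′ minus 5′ difference, was lowest for F9 at 12.73 (next value 12.84) and for Masp2 at 10.60 (next value 10.87). Replicate 5 at 0.71 mg/kg was lowest for Fgg at 14.08 (next value 14.16) and highest for Klkb1 at 11.95 (next value 11.69). At 7.06 mg/kg replicate 4 was highest for F5 at 10.26 and replicate 3 for Vtn at 13.65. At 0.07 mg/kg replicate 6 was lowest for F10 at 11.82. In vehicle replicate 3 was highest for Proc at 12.38 and replicate 4 for Vtn at 13.68.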

How the results depend on the processing

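The number of members and of probe sets past the adjusted threshold was 0 for every dose, for the slope and for any difference, under each alternative tried for it by limma, a threshold of 0.10 included. Leaving out each array of the dose or of vehicle in turn, the median difference of the members ran from -0.006 to 0.016 at 706 mg/kg, 0.011 to 0.033 at 70.6 mg/kg, -0.014 to 0.0096 at 7.06 mg/kg, -0.013 to 0.004 at 0.71 mg/kg and -0.022 to -0.002 at 0.07 mg/kg, and 0 probe sets and 0 members were called. Counts of members at an unadjusted p under 0.05 moved in 12 of these fits: single dose counts and that for any difference reached 1 against 0, and over dose rank 3 members passed with trend and robust moderation and with log10 dose over the 5 doses alone, and 2 without the 2 arrays of high GAPDH difference, against 1, and the cause was not tested. The replicate block cannot move a difference in this balanced design (the members' median at 706 mg/kg is 0.0045 with or without it), and calls were 0 with it. Same-numbered arrays of different groups correlated from -0.41 to 0.27 (median -0.02) in their deviations, against a median of -0.0034 for arrays of other numbers. These values show no pairing by replicate number and cannot exclude a weak one. Leaving out the arrays of high GAPDH difference turned the r of Masp1 and Masp2 to -0.11 from 0.0027, neither past the threshold, and the 3 passing pairs passed again. By median absolute deviation the spread of Fgg was 0.018 against 0.028. The number of arrays limits what could be seen.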
